A study of Mus musculus with 4 samples.

Results

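Myosin heavy chains are the motor subunits of myosin II, and 7 of their genes were followed in hearts of newborn mice (postnatal day 0). They were taken by symbol from the gene counts of each library, as 7 of 43346 gene identifiers, and all 7 passed the filter on low counts. The double knockout group carried knockouts of the genes of MRTFA and MRTFB, coactivators of serum response factor, and was of mixed strain background. The wild type group was of ICR background. Each group had 2 libraries of whole heart RNA, and the labels do not say whether these came from separate animals, so p-values reflect library-to-library spread alone, some of which may be technical. The labels give neither the cells in which the genes were deleted nor the means, and genotype and strain background cannot be told apart.

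A heavy chain carries an ATP-driven motor head and a long coiled tail through which molecules pair and assemble into filaments, and each binds an essential and a regulatory light chain. Myh6 (alpha) and Myh7 (beta) form the thick filaments of the cardiac sarcomere. In the mouse ventricle Myh7 is the fetal chain and Myh6 takes over around birth under thyroid hormone, with the slower beta motor returning in many forms of heart stress. Myh11 is the smooth muscle chain, Myh9, Myh10 and Myh14 encode the non-muscle chains IIA, IIB and IIC of the cell cortex and cytokinetic ring, and Myh7b is an ancient sarcomeric relative of the cardiac pair.

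Library totals ran from 16175259 to 29460641 counts, the lowest in double knockout library 2. The libraries of the double knockout group also stood apart from each other. The first principal component of all tested genes, with 58.7% of the variance, separated the groups but also spread the double knockout libraries. Double knockout libraries 1 and 2 lay at 8.375 and 39.62 on it, and wild type libraries 1 and 2 at -26.51 and -21.48. The second, with 30.6%, put double knockout libraries 1 and 2 at its ends. Mrtfa had 3.35 and 2.26 CPM in double knockout and 9.06 and 11.1 CPM in wild type (CPM, TMM-scaled counts per 1e6 counts; log2 fold change -1.82, SE 0.26, edgeR adjusted p = 0.12). Mrtfb was at 46.0 and 49.6 CPM in double knockout and 46.9 and 56.8 CPM in wild type, and a count over the whole gene checks nothing about a deletion of part of it. Cardiomyocyte markers summed to 33804.5 and 31760.6 CPM in double knockout and 45549.5 and 39893.6 CPM in wild type libraries, against 2.998 to 3.73 CPM for skeletal muscle markers and 0 counts of Myod1 in all 4 libraries. Most of the difference in the cardiomyocyte sum was Actc1, cardiac actin. Its mean was 6485.3 CPM in double knockout and 15089.5 CPM in wild type. Of the 7 cardiomyocyte markers, 5 had negative log2 fold changes: Actc1 (-1.22), Ttn (-0.31), Actn2 (-0.18), Ryr2 (-0.16) and Tnni3 (-0.13). The 2 with positive ones were Tnnt2 (0.08) and Pln (0.14).

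The cardiac pair lies in tandem on the minus strand of chromosome 14, and its sequences bear on every level given here. Myh7 (ENSMUSG00000053093, 54970684 to 54994626, mm10) lies upstream of Myh6 (ENSMUSG00000040752, 54941921 to 54966927), with 3756 bases between the annotated genes. Their coding sequences were 91.7% identical over 5802 aligned bases, against 71.5% for Myh6 with Myh7b and 52.1% to 55.2% for Myh6 with Myh9, Myh10, Myh11 and Myh14. Of the 50-base windows of the longest coding transcripts in GENCODE M21, 22.6% of those of Myh6 occur unchanged in Myh7, and 11.4% of 100-base windows do. The sources used here do not say how reads matching both genes were counted, so the split between the pair carries that uncertainty in every library. The longest coding run that both share is shown because a short read from it cannot be placed. It spans a junction of exons 30 and 31 in Myh6 (chr14:54948327-54948725) and of exons 32 and 33 in Myh7 (chr14:54974947-54975347) and holds 245 identical bases, with no position in capitals.
Myh6 and Myh7 shared run: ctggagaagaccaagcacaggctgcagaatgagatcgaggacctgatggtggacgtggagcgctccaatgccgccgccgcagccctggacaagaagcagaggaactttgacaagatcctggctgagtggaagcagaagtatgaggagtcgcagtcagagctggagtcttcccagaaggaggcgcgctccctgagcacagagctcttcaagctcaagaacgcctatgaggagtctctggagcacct

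The most different ungapped 60 bases of the pair are shown for contrast, with the 27 differing bases in capitals. They span exons 24 and 25 of Myh6 (chr14:54952303-54952599) and exons 26 and 27 of Myh7 (chr14:54980378-54982191), where reads separate the genes.
Myh6 window: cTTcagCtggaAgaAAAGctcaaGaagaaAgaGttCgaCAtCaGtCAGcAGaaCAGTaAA
Myh7 window: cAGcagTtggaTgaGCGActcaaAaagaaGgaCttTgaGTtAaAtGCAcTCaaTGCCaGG

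Each of the 3 sarcomeric chains hosts a microRNA gene, a family known in the mouse for tuning the heavy chain genes themselves. The main mature forms are shown from RefSeq (GRCm38.p6) with the seed, bases 2 to 8, in capitals, because they link the hosts into a set.
mmu-miR-208a-3p in Myh6: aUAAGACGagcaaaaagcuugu
mmu-miR-208b-3p in Myh7: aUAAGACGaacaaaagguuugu
mmu-miR-499-5p in Myh7b: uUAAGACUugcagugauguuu
The forms hosted by Myh6 and Myh7 share all 7 seed bases, and the form hosted by Myh7b shares the first 6. Mature microRNAs were not measured. Counts assigned to the Mir208b locus were 29 and 13 in double knockout and 56 and 41 in wild type libraries. This was 1.02 and 0.795 CPM in double knockout and 1.97 and 1.65 CPM in wild type. Those of Mir208a were 16 and 4 in double knockout and 21 and 7 in wild type. Its groups overlapped, at 0.564 and 0.245 CPM in double knockout and 0.740 and 0.281 CPM in wild type. Mir499 had 0 and 0 counts in double knockout and 0 and 1 in wild type.

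The M-CAT element bound by TEAD factors, CATTCC, was searched on both strands in the 250 bases before each start in the RefSeq table, and 12.64% of all 32851 such windows held it. Myh6 and Myh10 had 1 match, Myh7 had 1 match over its 2 windows, Myh7b, Myh9 and Myh14 had 0, and Myh11 was not matched in that table. The match lies at -206 to -201 from the RefSeq start of Myh6 (54966607) and at -201 to -196 from that of Myh7 (54994626). For Myh7 this start is the end of the gene as annotated in GENCODE M21, but for Myh6 that annotation begins further upstream, at 54966927, so the Myh6 match lies inside the GENCODE gene and its distance holds for the RefSeq start alone. They are shown in 30 bases each with the match in capitals (minus strand, GRCm38.p6). A match is a description and no evidence of binding. Tead1, which encodes such a factor, was at 313 and 326 CPM in double knockout and 368 and 326 CPM in wild type libraries.
Myh6 before its RefSeq start, chr14:54966796-54966825: ctttggggaggaGGAATGtgcccaaggact
Myh7 before its RefSeq start, chr14:54994810-54994839: ctagtgagccgtGGAATGttagagatattt

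Levels between genes were compared as CPM per kb of merged exons. Myh6 led the family in every library, with a level of 2204.1 and 1928.0 CPM per kb in double knockout and 2432.4 and 2551.8 CPM per kb in wild type. It made up 82.9% and 72.3% of the summed level of the 7 genes in double knockout libraries and 83.0% and 89.3% in wild type libraries. Myh7 came next in every library, and the cardiac pair together held 97.1% to 97.4% of the family level. Then came Myh10 (31.4 ± 3.7 in double knockout and 32.9 ± 0.641 CPM per kb in wild type, SD, n = 2 each), Myh7b (22.5 ± 8.12 in double knockout and 28.8 ± 1.54 in wild type) and Myh9 (14.5 ± 2.36 in double knockout and 18.0 ± 0.647 in wild type). Myh11 stood at 2.26 ± 0.333 CPM per kb in double knockout and 3.33 ± 1.01 in wild type. Myh14 was lowest, at 0.735 ± 0.112 CPM per kb in double knockout and 0.316 ± 0.0767 in wild type. All 4 libraries gave the same order, but the neighbours Myh10 and Myh7b differed by a factor of 1.02 to 2.04 between libraries, and Myh7b and Myh9 by 1.03 to 2.19. With the length of the longest coding transcript in place of merged exons, Myh9 passed Myh7b in double knockout library 2 and wild type library 2, so those neighbours have no firm order.

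**Figure D1:**
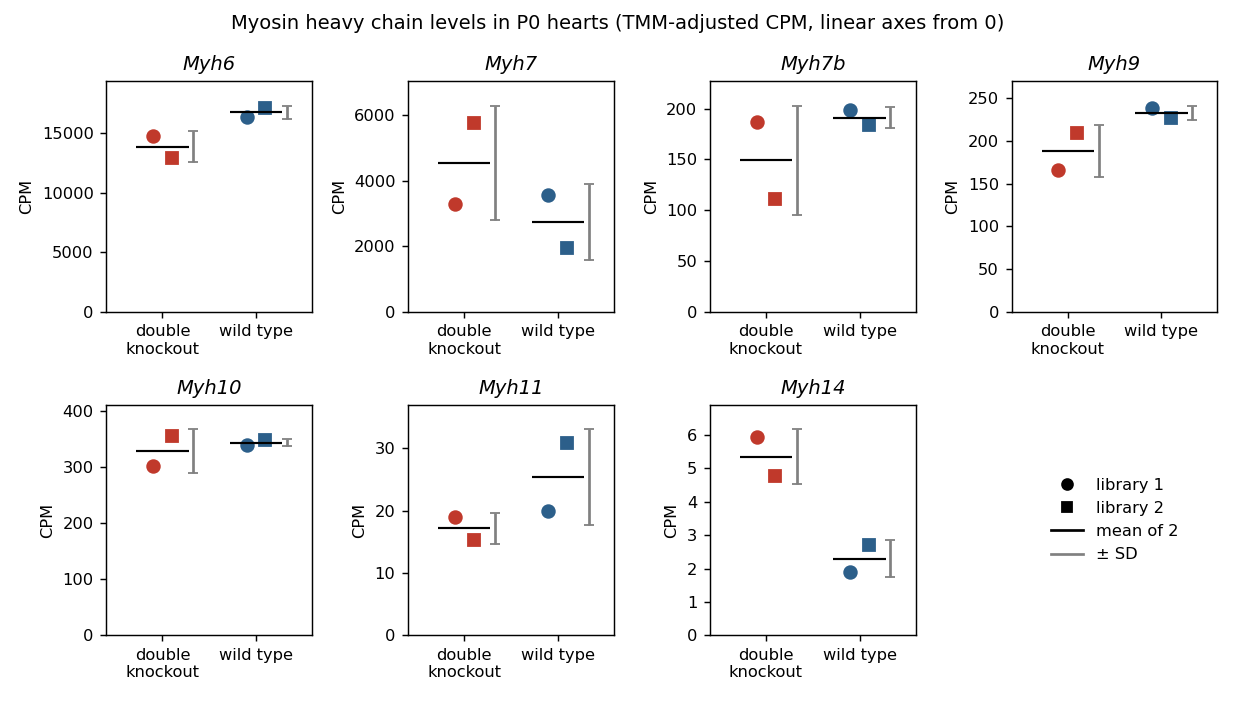
Level of each myosin heavy chain gene in TMM-adjusted CPM (linear axes from 0), double knockout in red left of wild type in blue, with circles for library 1, squares for library 2, black lines for means and grey bars for ± SD (n = 2). The groups overlap for Myh7, Myh7b and Myh10, and Myh14 is higher in both double knockout libraries at a level of 1.90 to 5.92 CPM.

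The alpha chain was somewhat lower in the double knockout hearts. Myh6 was at 14825.0 and 12967.9 CPM in double knockout and 16360.6 and 17163.1 CPM in wild type. Both double knockout libraries lay below both wild type libraries, as did 25.2% of all tested genes. The log2 fold change was -0.27 (SE 0.13), with edgeR adjusted p = 0.364. In bulk tissue, fewer cells of a type and less RNA per cell cannot be told apart.

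The beta chain differed as much within the groups as between them. Myh7 was at 3298.1 and 5774.9 CPM in double knockout and 3557.4 and 1930.2 CPM in wild type. Double knockout library 2 was the highest, wild type library 2 the lowest, and library 1 of each genotype lay between them at nearly the same level. The fold between libraries was 1.75 within double knockout and 1.84 within wild type, against 1.65 between the groups (log2 fold change 0.73, SE 0.40, edgeR adjusted p = 0.427). Without double knockout library 2 the log2 fold change was 0.27, and without wild type library 2 it was 0.34.

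The Myh7 to Myh6 ratio, taken within each library and free of any scaling between libraries, showed the same arrangement. Per kb it was 0.174 and 0.348 in double knockout and 0.17 and 0.0878 in wild type. The libraries numbered 1 were almost equal, with double knockout just above, and the libraries numbered 2 held the highest and the lowest ratio. The log2 ratio averaged -2.02 ± 0.71 in double knockout and -3.03 ± 0.67 in wild type (SD, n = 2 each), a difference of 1.01. An exact two-sided permutation test gave p = 0.333, the smallest that 2 against 2 libraries allow, and 0.555 after Benjamini-Hochberg adjustment over 5 ratios. The difference was 0.51 without double knockout library 2, 0.53 without wild type library 2, and 1.51 and 1.48 without library 1 of double knockout or wild type.

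As a share of the counts of the pair, Myh7 held 18.2% and 30.81% in double knockout and 17.86% and 10.11% in wild type. The exact binomial 95% intervals, which cover counting error only, ran from 18.09% to 18.3% and from 30.65% to 30.97% in double knockout, and from 17.76% to 17.96% and from 10.02% to 10.2% in wild type. Counting error was thus far smaller than the spread between libraries of a group. The sum of Myh6 and Myh7 was much steadier than its parts, with a factor of 1.1 from lowest to highest. It was 18123.1 and 18742.8 CPM in double knockout and 19917.9 and 19093.4 CPM in wild type. Both double knockout sums thus lay below both wild type sums, with a fold of 0.945 between the group means.

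**Figure D2:**
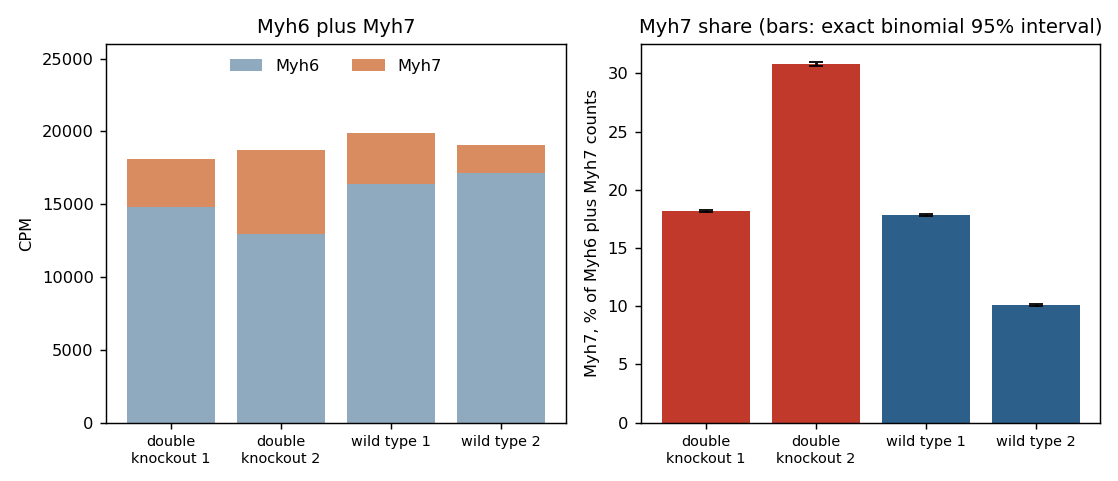
Left, stacked CPM of Myh6 and Myh7 per library; right, Myh7 as a percentage of the counts of the pair, with exact binomial 95% intervals (counting error only). The stacks differ little in height, while the Myh7 share runs from 10.11% in wild type library 2 to 30.81% in double knockout library 2.

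Markers of the heart chambers were read beside the pair, of which Myh7 is mainly ventricular in the fetal mouse. edgeR called 0 of 7 atrial and 0 of 4 ventricular markers, against 0.075% of all tested genes, and limma-voom called 0. An unadjusted edgeR p under 0.05 was seen in 4 and 0 of them, against 17.3% of all tested genes. DESeq2 called 3 atrial markers as higher, against 1.69% of all tested genes, and 0 ventricular ones. Atrial markers summed to 1547.3 and 1464.2 CPM in double knockout and 669.5 and 1031.9 CPM in wild type, and 6 of 7 lay above wild type in both double knockout libraries, as did 25.8% of all tested genes. Ventricular markers summed to 10205.9 and 8054.8 CPM in double knockout and 11241.4 and 10965.5 CPM in wild type, with 2 of 4 below wild type in both (Myl2 and Myl3, against 25.2% of all tested genes), 1 above (Hey2) and 1 overlapping (Irx4). The library with the highest Myh7 thus had the lowest ventricular sum. The part of chamber composition in the Myh6 and Myh7 values was not tested.

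Mhrt, a long noncoding RNA transcribed opposite to Myh7 and known in the mouse to protect the heart under load, overlaps 484 exonic bases of Myh7, 5.62% of them. It was at 11.3 and 8.99 CPM in double knockout and 13.2 and 16.6 CPM in wild type. Both double knockout values lay below both wild type values, as in 25.2% of all tested genes. The log2 fold change of Mhrt was -0.55 (SE 0.20, edgeR adjusted p = 0.254). The sources used here give no strand setting for the counting, so reads from the overlap cannot be assigned to either gene.

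Myh7b (ENSMUSG00000074652, chromosome 2, 155611212 to 155634307), whose spliced transcript in the mammalian heart is known to yield little protein, was set apart by a single library. It was at 187.1 and 110.9 CPM in double knockout and 198.4 and 184.0 CPM in wild type. Double knockout library 1 lay within the wild type range and library 2 well below it. The log2 fold change was -0.36 (SE 0.25, edgeR adjusted p = 0.515), -0.79 without double knockout library 1 and -0.03 without double knockout library 2. Its ratio to Myh6 was 0.0128 and 0.00867 per kb in double knockout and 0.0123 and 0.0109 in wild type, which overlap.

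The smooth muscle chain was lower in both double knockout libraries, by less than wild type libraries differed from each other. Myh11 (ENSMUSG00000018830, chromosome 16, 14194535 to 14291372) was at 18.9 and 15.4 CPM in double knockout and 19.9 and 30.7 CPM in wild type. Both double knockout libraries lay below both wild type libraries, as did 25.2% of all tested genes. Wild type library 1 lay close to double knockout library 1. The log2 fold change was -0.56 (SE 0.24, edgeR adjusted p = 0.312), and -0.22 without wild type library 2.

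Of 6 smooth muscle markers, 3 had larger fold changes than Myh11 (Acta2, Cnn1 and Smtn) and 3 had smaller ones: Tagln with a log2 fold change of -0.35, Lmod1 with -0.18 and Myocd with 0.09. The differences from Myh11 were not tested. Acta2, smooth muscle actin, was at 534.9 and 439.3 CPM in double knockout and 2961.6 and 1468.1 CPM in wild type (log2 fold change -2.18, SE 0.37, edgeR adjusted p = 0.141). Cnn1, which encodes the actin-binding calponin, was at 20.4 and 11.8 CPM in double knockout and 49.0 and 41.2 CPM in wild type, and Smtn, smoothelin, at 53.7 and 49.2 CPM in double knockout and 84.4 and 88.8 CPM in wild type. edgeR called 0 of the 6, against 0.075% of all tested genes, and limma-voom called 0. An unadjusted edgeR p under 0.05 was seen in 3, against 17.3% of all tested genes. DESeq2 called 3 of the 6 as lower, against 1.51% of all tested genes (adjusted p = 2.78e-09 for Acta2, 7.61e-05 for Cnn1 and 0.000622 for Smtn). The DESeq2 adjusted p of Myh11 was 0.345. The ratio of Myh11 to Acta2 counts was 0.0354 and 0.035 in double knockout and 0.00672 and 0.0209 in wild type, and the ratio to Cnn1 counts was 0.926 and 1.3 in double knockout and 0.406 and 0.746 in wild type. Both ratios were thus higher in both double knockout libraries, while those to Tagln, Smtn and Myocd overlapped and that to Lmod1 was lower in both. Acta2 is also used by other cells of the newborn heart, among them immature cardiomyocytes. Myocd was also listed here as a regulator of the cardiac pair, so it is not a marker of smooth muscle alone. It was at 132.7 and 187.9 CPM in double knockout and 140.3 and 159.7 CPM in wild type.

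**Figure D3:**
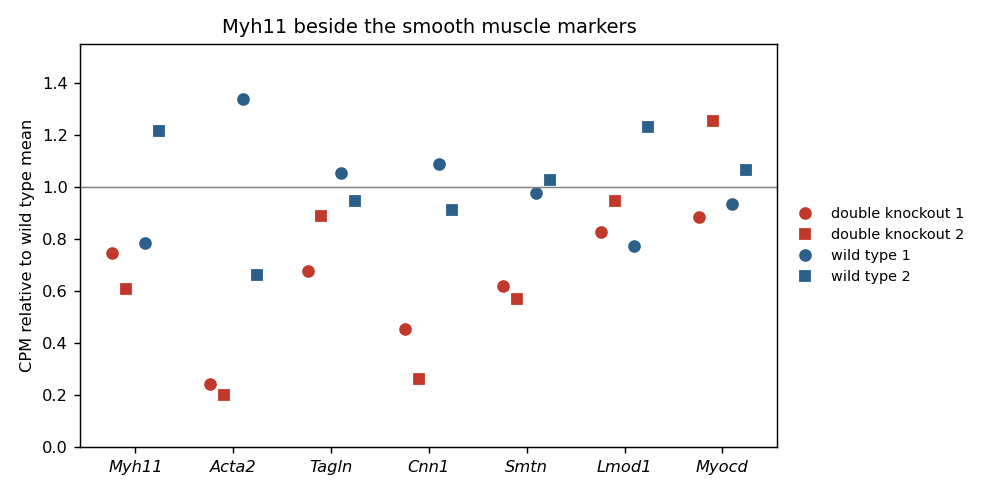
CPM of Myh11 and 6 smooth muscle markers relative to the wild type mean of each gene, per library, double knockout in red left of wild type in blue. Double knockout values of Acta2 and Cnn1 lie well under those of wild type, whereas Myh11 of double knockout library 1 lies beside that of wild type library 1.

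Of the main non-muscle chains, Myh9 was somewhat lower in double knockout hearts and Myh10 overlapped. Myh9 (ENSMUSG00000022443, chromosome 15, 77760587 to 77842175), known as a target of serum response factor signalling in other cells, was at 166.2 and 209.5 CPM in double knockout and 238.6 and 226.7 CPM in wild type. Both double knockout libraries lay below both wild type libraries, as did 25.2% of all tested genes. The log2 fold change of Myh9 was -0.31 (SE 0.14, edgeR adjusted p = 0.331). With 1 library left out it ran from -0.48, without double knockout library 2, to -0.15, without double knockout library 1. Myh9 lies 3.17 Mb from Mrtfa, so linked DNA of another strain cannot be told apart from genotype. Distances to Mrtfb were not computed, so the same may hold for other members. Myh10 (ENSMUSG00000020900, chromosome 11, 68691559 to 68816632), the chain most used in the embryonic mouse heart for cytokinesis, was at 301.5 and 356.1 CPM in double knockout and 339.0 and 348.4 CPM in wild type. Its groups overlapped and its log2 fold change was -0.06 (SE 0.13, edgeR adjusted p = 0.827). That value was 0.00 without composition factors and 0.05 without double knockout library 1, so no direction held across settings.

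Myh10 stood higher relative to Myh9 in double knockout hearts. The Myh10 to Myh9 ratio per kb was 2.24 and 2.1 in double knockout and 1.76 and 1.9 in wild type, a log2 difference of 0.25 with groups that did not overlap (exact permutation p = 0.333, the smallest possible, 0.555 adjusted over 5 ratios). Within groups the ratio varied by a factor of 0.938 between double knockout libraries 2 and 1 and of 0.925 between wild type libraries 1 and 2.

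Myh14 had the largest fold change of the 7 genes, at the lowest level. Myh14 (ENSMUSG00000030739, chromosome 7, 44605803 to 44670843), the non-muscle chain known chiefly from epithelia, inner ear and nervous system, had 168 and 78 counts in double knockout and 54 and 67 counts in wild type libraries. This was 5.92 and 4.77 CPM in double knockout and 1.90 and 2.69 CPM in wild type. The groups did not overlap, with double knockout higher, as for 25.8% of all tested genes. The log2 fold change was 1.23 (SE 0.27), with edgeR adjusted p = 0.154 and DESeq2 adjusted p = 0.044. Leaving out each library in turn gave log2 fold changes of 0.99 to 1.48, and the edgeR adjusted p was 0.0327 leaving out library 1 of double knockout, 0.0114 leaving out its library 2, 0.966 leaving out library 1 of wild type and 0.578 leaving out its library 2. Per kb, its ratio to the sum of Myh9 and Myh10 was 0.0195 and 0.0131 in double knockout and 0.00514 and 0.00728 in wild type, a log2 difference of 1.38 (exact permutation p = 0.333, the smallest possible).

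Epithelial and neuron markers, of cell types known to use Myh14, were low. Epithelial markers summed to 12.4 and 11.9 CPM in double knockout and 9.66 and 8.40 CPM in wild type. Nearly all of this was Krt18 and Krt8, keratins that other embryonic cells also use, while Epcam was at 0 and 0.122 CPM in double knockout and 0.106 and 0.0804 CPM in wild type. Cdh1 did not exceed 0.0705 CPM in double knockout and 0.352 CPM in wild type. Neuron markers summed to 2.29 and 1.41 CPM in double knockout and 2.22 and 3.29 CPM in wild type. The epithelial sum was thus higher and the neuron sum overlapped, while the epithelial adhesion genes Epcam and Cdh1 were at or near 0 in every library. Markers of the epicardium, the covering layer of the heart, were listed apart from the epithelial ones and were higher than these. They summed to 102.4 and 99.35 CPM in double knockout and 97.13 and 99.9 CPM in wild type, which overlap. The part of any of these cells in the Myh14 values was not tested.

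Across the family, edgeR called 0 of 7 genes, against 0.075% of all tested genes (0.0125% higher and 0.0625% lower), and 1 of 7 had an unadjusted p under 0.05, against 17.3%. DESeq2 called 1 of 7, Myh14, where it called 3.2% of all genes, 1.69% as higher and 1.51% as lower, and limma-voom called 0. edgeR called 2 of 7 with no filter on low counts, where it called 6.07% of all genes, 2 without double knockout library 1 (16.8%), 2 without double knockout library 2 (7.65%) and 0 without either wild type library (0% each). In 3 genes both double knockout libraries lay below both wild type libraries, against 25.2% of all tested genes, in 1 above, against 25.8%, and in 3 the groups overlapped. The median log2 fold change was -0.27, with 5 negative and 2 positive, beside 0.01 over all tested genes.

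**Figure D4:**
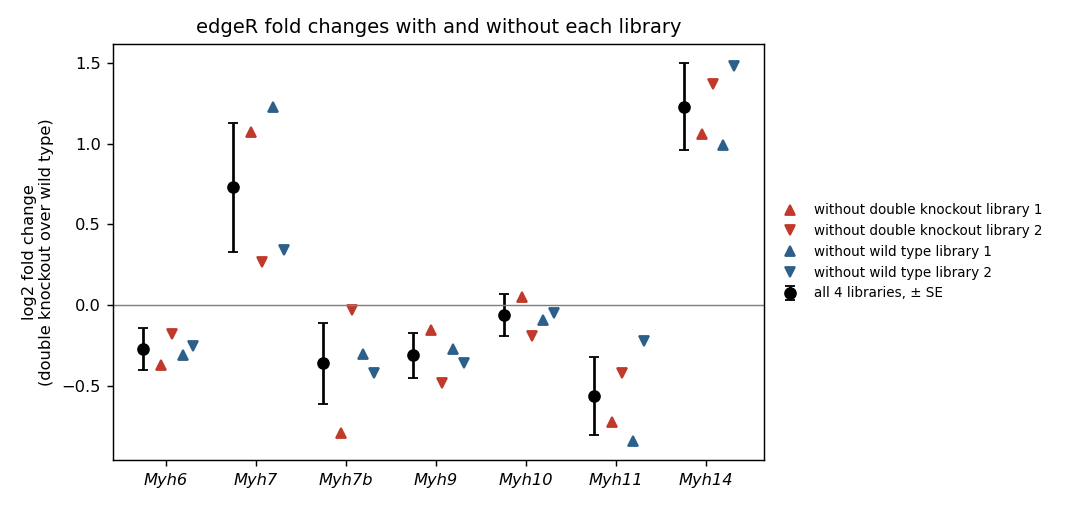
edgeR log2 fold change of each heavy chain gene (double knockout over wild type), in black with all 4 libraries (± SE) and as triangles with 1 library left out. Myh14 stays between 0.99 and 1.48, whereas Myh7 ranges from 0.27 to 1.23 and Myh7b from -0.79 to -0.03.

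Of the 7 remaining sarcomeric heavy chains, known chiefly from developing and fast skeletal muscle, Myh8 alone passed the filter on low counts. Myh8, the perinatal chain, had 91 and 68 counts in double knockout and 79 and 156 counts in wild type, or 3.21 and 4.16 CPM in double knockout and 2.78 and 6.27 CPM in wild type (log2 fold change -0.30, SE 0.42, edgeR adjusted p = 0.749). Myh3, the embryonic chain, had 7 and 3 counts in double knockout and 7 and 19 counts in wild type. Myh1, Myh2, Myh4 and Myh13 had at most 13 counts in any library, and Myh15 had 0 in all 4 libraries.

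Light chains, the partners of the heavy chains, held the largest fold change among the named genes. edgeR called 0 of the 11 tested of 12 light chain genes, against 0.075% of all tested genes, and limma-voom called 0. An unadjusted p under 0.05 was seen in 3, against 17.3% of all tested genes, and the median log2 fold change was -0.14. DESeq2 called 2, against 3.2% of all tested genes, with Myl9 lower and Myl1 higher. Myl9, a regulatory light chain used by smooth muscle and non-muscle chains alike, was at 220.5 and 291.4 CPM in double knockout and 1778.9 and 1136.9 CPM in wild type (log2 fold change -2.51, SE 0.27, edgeR adjusted p = 0.0957, DESeq2 adjusted p = 1.41e-18). Its heavy chain partners Myh9, Myh10 and Myh11 had log2 fold changes of -0.31, -0.06 and -0.56. Myl1, an essential light chain of skeletal muscle, was at 41.4 and 35.6 CPM in double knockout and 12.7 and 23.5 CPM in wild type (log2 fold change 1.09, SE 0.30, edgeR adjusted p = 0.192, DESeq2 adjusted p = 0.0194). Myl3, the ventricular essential light chain, was at 3555.3 and 2902.4 CPM in double knockout and 3965.5 and 3974.0 CPM in wild type, and Mylpf, a fast skeletal chain, at 0.529 and 0.612 CPM in double knockout and 1.30 and 1.04 CPM in wild type.

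Enzymes that set light chain phosphorylation were not called: edgeR, DESeq2 and limma-voom each called 0 of 13 tested of 14, against 0.075% of all tested genes in edgeR and 3.2% in DESeq2. An unadjusted p under 0.05 was seen in 2, against 17.3% of all tested genes, and the median log2 fold change was -0.09. Ppp1cb, a myosin phosphatase catalytic subunit, was at 824.4 and 920.7 CPM in double knockout and 1074.7 and 903.8 CPM in wild type. Mylk3, the cardiac light chain kinase, was at 1007.0 and 784.4 CPM in double knockout and 640.9 and 602.9 CPM in wild type (log2 fold change 0.53, SE 0.15, edgeR adjusted p = 0.193).

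The 16 tested thick filament partners and chaperones (17 listed) had a median log2 fold change of -0.07. Myom2, an M-band protein that crosslinks myosin, was at 1221.6 and 1330.2 CPM in double knockout and 963.3 and 900.8 CPM in wild type. Ttn, the titin spring and ruler of the thick filament, was at 7514.0 and 7421.3 CPM in double knockout and 9727.3 and 8737.6 CPM in wild type. Mybphl, a myosin binding protein known from the atria, was at 49.3 and 38.2 CPM in double knockout and 4.65 and 21.3 CPM in wild type, beside the atrial markers given above.

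Regulators of the cardiac pair showed no call in edgeR, DESeq2 or limma-voom among 18 tested, against 0.075% of all tested genes in edgeR and 3.2% in DESeq2. An unadjusted p under 0.05 was seen in 3, against 17.3% of all tested genes, and the median log2 fold change was -0.02. Mef2a, a MADS-box factor of muscle genes, was at 978.6 and 803.9 CPM in double knockout and 774.0 and 791.4 CPM in wild type. Purb, a repressor of Myh6 in the mouse and rat, was at 323.9 and 307.9 CPM in double knockout and 401.4 and 359.4 CPM in wild type. Thrb, a thyroid hormone receptor picked after its values were seen, had the highest fold change of the list, at 8.78 and 10.8 CPM in double knockout and 3.67 and 6.27 CPM in wild type (log2 fold change 0.98, SE 0.30, edgeR adjusted p = 0.2).

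**Figure D5:**
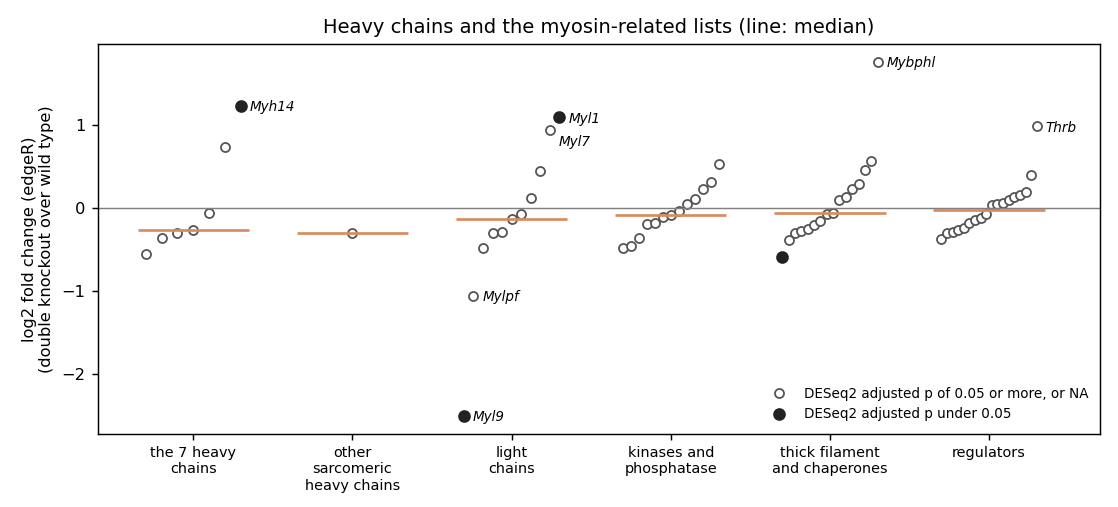
edgeR log2 fold change (double knockout over wild type) of every tested gene of the 7 heavy chains and of 5 myosin-related lists, with filled points for DESeq2 adjusted p under 0.05 and orange lines for medians. Myl9 lies lowest at -2.51, Myh14 and Myl1 are filled above 0, and list medians stay between -0.30 and -0.02.

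Genes with a library pattern most like a heavy chain were found by the root mean square difference of log2 CPM, centred over the 4 libraries, for chains that spanned at least 0.8 on that scale. With 4 libraries such likeness is a description. For Myh7 they were Ifit2 (0.075), an interferon-induced protein, Slco5a1 (0.091), a membrane transporter, and Edn1 (0.114), the vasoconstrictor endothelin-1, which was at 14.2 and 23.8 CPM in double knockout and 15.0 and 9.48 CPM in wild type. For Myh7b they were Timm22 (0.018), a mitochondrial import subunit, Adcyap1r1 (0.023), a neuropeptide receptor, and Itgb1bp2 (0.033), the muscle integrin-binding protein melusin. Itgb1bp2 was at 216.9 and 136.9 CPM in double knockout and 235.2 and 216.8 CPM in wild type, with double knockout library 2 lowest as for Myh7b. For Myh11 they were Gdf11 (0.053), Irgm2 (0.102) and Lpar3 (0.104), and for Myh14 they were Tgfa (0.069), Col26a1 (0.08) and Cd46 (0.081). Tgfa, a growth factor of the epidermal growth factor family, had 312 and 162 counts in double knockout and 123 and 134 counts in wild type, or a mean of 10.46 CPM in double knockout and 4.86 CPM in wild type.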

How the data were processed

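Heart RNA of 4 libraries was measured by RNA sequencing. The authors deposited raw read counts for each Ensembl gene, made with HTSeq on mm10, and DESeq 1.10.1 is also named, per the submitters' processing notes. The sources used here give no aligner, annotation release, strand setting or treatment of multiply matching reads. GENCODE M21, on the same build, gave symbols, positions and exon lengths for 42462 of 43346 identifiers, and 0 rows named no gene. Counts were tested with the quasi-likelihood test of edgeR 4.0.16 (R 4.3.3; filterByExpr, TMM, robust, no covariate, all 4 libraries), with Benjamini-Hochberg adjustment over 16009 genes and a threshold of 0.05. CPM are counts per 1e6 on TMM-adjusted totals. DESeq2 1.42.0 and limma-voom (limma 3.58.1) were alternatives, as were other scalings and filters, a replicate block, and leaving out each library. Adjusted p was NA in DESeq2 for 311 genes. A count of 3 equals 0.106 to 0.184 CPM per library. Coding sequences were aligned with MAFFT 7.526. Named genes were the 7 heavy chains and, from each of 5 lists, up to 4 genes with the smallest adjusted p in edgeR or DESeq2 where any passed, otherwise the 2 with the highest CPM. Likeness used log2(CPM + 0.5) of tested genes with a mean of at least 5 CPM. The result of 1 gene of the thick filament list, and that list's counts of calls, are not reported here. The members and lists were chosen with earlier results of these data known.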

Additional observations from a re-analysis of the deposited data

How the results depend on the processing

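The count of genes past the edgeR threshold was 12 and depended strongly on the setting: 1514 without a filter on low counts, 513 in DESeq2 and 0 to 2684 with 1 library left out. The count of heavy chains past the threshold was 0, with 2 without a filter, 1 in DESeq2 and 0 to 2 with 1 library left out. Without a filter these were Myh11 and Myh14 (background 6.07%), without double knockout library 1 Myh7b and Myh14 (16.8%), and without double knockout library 2 Myh9 and Myh14 (7.65%). With 1 library left out, the lone library of a group is assumed to vary like the other group. The titles number the libraries alike in both groups, but with 2 pairs and nothing in the labels on shared litters or days they share only a number. Deviations of same-numbered libraries from their group means correlated at -0.12 across genes. With a replicate block 2 genes and 0 heavy chains passed, and with a crossed pairing, added after seeing the data, 3 genes and 0 heavy chains. The Myh7 to Myh6 difference was 1.01 with the replicate block, made of 0.03 for number 1 and 1.99 for number 2, and its range was 0.51 to 1.51 with 1 library left out. Fold changes turned direction for Myh10 without composition factors (0.00) and without double knockout library 1 (0.05), and for Myh8 without wild type library 2 (0.39). With 1 library left out, Myh10 ranged from -0.19 to 0.05 and Myh8 from -0.78 to 0.39. Of the partner genes, Myl9, Myl1, Mylk3 and Myom2 passed edgeR with no filter, Myl9 also with the crossed pairing and without either double knockout library, Myl3 and Myom2 without library 1, and Mylk3 without library 2. The cause of these changes was not tested. The other 6 heavy chains kept their direction in all 15 alternatives, with log2 fold changes of -0.37 to -0.18 for Myh6, 0.27 to 1.23 for Myh7, -0.79 to -0.03 for Myh7b, -0.48 to -0.15 for Myh9, -0.84 to -0.22 for Myh11 and 0.99 to 1.48 for Myh14. Depth limits Myh14 most, with 54 counts in its lowest library.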
